A study of Mus musculus and Rattus norvegicus with 32 samples.

Results

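The 9 genes described here are grouped, as background and not as a result for each gene, as stretch-responsive ankyrin repeat and Z-disc genes. They are Ankrd1, Ankrd2, Ankrd23, Csrp3, Tcap, Fhl1, Fhl2, Xirp1 and Xirp2. They were found by gene symbol, as 9 of the 55487 rows of each mouse table and 8 of the 32883 rows of the rat table, which has no row with the symbol Tcap. The members were chosen by their measured differences between genotypes after pressure overload and between viruses in rat cells. Their values in both of those comparisons are therefore a description. The number that passes the threshold applied to all genes is given there only as a count, beside the share of all genes that pass, and is no test of the members.

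The study asked what METTL5, an enzyme that places m6A on ribosomal RNA, does in the heart. The RNA came from hearts of C57BL/6 mice and from neonatal rat ventricular cardiomyocytes (NRVMs), with 4 libraries in each of 8 groups. The mouse groups were control and METTL5-KO hearts at 1 month of age, control and METTL5-cKO hearts at 3 months, and control and METTL5-cKO hearts 4 weeks after transverse aortic constriction (TAC), a surgical narrowing of the aorta that overloads the left ventricle. In METTL5-cKO mice a floxed METTL5 allele was removed by Cre under the αMHC (Myh6) promoter, so the deletion was directed to cardiomyocytes and the other cells of the heart still carry the gene. The METTL5-KO mice of the young age carried no stated tissue restriction, and the mice of the TAC table are labelled 3 months old. The NRVMs were cells of Sprague Dawley rats at postnatal day 2, pre-plated to deplete fibroblasts, transduced with an adenovirus carrying GFP (AdGFP) or the human METTL5 coding sequence (AdMETTL5), and all treated with 20 μM phenylephrine (PE), an adrenergic agonist that makes cardiomyocytes grow, for 24 h. There were no NRVM libraries without PE among those used, so the rat comparison is between viruses in stimulated cells only. The labels do not say whether libraries of a group came from separate animals or cultures, and p-values measure only the spread between these libraries.

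The Z-disc anchors the thin filaments and the ends of titin, the giant elastic protein of the sarcomere, and it is a place where cardiomyocytes sense mechanical load. Muscle ankyrin repeat proteins bind the elastic part of titin and also enter the nucleus, and Ankrd1 is widely used as a marker of the stressed or hypertrophic heart. The LIM domain proteins Csrp3, Fhl1 and Fhl2 dock on the Z-disc and on titin, Tcap caps the titin ends, and the Xin repeat proteins Xirp1 and Xirp2 bind actin at the intercalated disc and along the cell membrane.

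Promoter sequence was taken from RefSeq (GRCm38.p6) for the 250 bases before each listed transcription start. Such windows were found for 7 members, 11 windows in all. They were searched on both strands for CATTCC (the M-CAT element bound by TEAD factors), GATAA, the E-boxes CACCTG and CAGCTG, the CArG box bound by SRF and the MEF2 site. The 5 windows below are shown because they hold an M-CAT element, a CArG box or a MEF2 site, which are set in capitals and include matches on the other strand. Each window is written in the direction of its gene and ends at the base before the start.
Ankrd1, chr19:36119845-36120094, minus strand: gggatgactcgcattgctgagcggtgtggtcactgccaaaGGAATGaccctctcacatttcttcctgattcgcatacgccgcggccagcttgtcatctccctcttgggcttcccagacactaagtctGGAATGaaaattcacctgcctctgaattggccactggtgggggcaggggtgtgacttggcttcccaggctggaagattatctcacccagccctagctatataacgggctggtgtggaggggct
Ankrd23, chr1:36535740-36535989, minus strand: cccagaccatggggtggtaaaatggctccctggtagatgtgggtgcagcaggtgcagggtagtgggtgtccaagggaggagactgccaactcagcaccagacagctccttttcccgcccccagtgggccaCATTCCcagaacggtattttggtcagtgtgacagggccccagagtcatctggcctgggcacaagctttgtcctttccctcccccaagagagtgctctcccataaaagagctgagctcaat
Fhl1, chrX:56779433-56779682, plus strand: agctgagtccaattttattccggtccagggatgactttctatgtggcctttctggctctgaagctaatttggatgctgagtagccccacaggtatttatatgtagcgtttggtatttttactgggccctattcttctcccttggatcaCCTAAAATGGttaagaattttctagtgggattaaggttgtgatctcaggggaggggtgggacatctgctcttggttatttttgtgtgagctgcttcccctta
Fhl2, chr1:43196762-43197011, minus strand: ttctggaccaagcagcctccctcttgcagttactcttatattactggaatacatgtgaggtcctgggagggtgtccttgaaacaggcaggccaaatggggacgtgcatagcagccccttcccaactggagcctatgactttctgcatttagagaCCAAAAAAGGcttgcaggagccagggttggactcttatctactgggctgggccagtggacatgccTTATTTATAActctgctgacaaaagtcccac
Xirp2, chr2:67445752-67446001, plus strand: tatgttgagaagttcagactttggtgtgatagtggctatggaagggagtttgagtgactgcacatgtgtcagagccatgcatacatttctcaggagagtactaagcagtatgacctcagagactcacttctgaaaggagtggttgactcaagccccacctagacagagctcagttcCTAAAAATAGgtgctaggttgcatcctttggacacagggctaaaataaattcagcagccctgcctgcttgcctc

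The Ankrd1 window holds the M-CAT element 2 times on the opposite strand, at bases 210 to 205 and 123 to 118 before the start. The Ankrd23 window holds it 1 time, at bases 120 to 115. M-CAT elements were in 2 of the 11 member windows, from 2 members, and in 12.6% of all 32851 windows of this length. The Fhl1 window has a CArG box at bases 102 to 93, the Fhl2 window has a CArG box at 96 to 87 and a MEF2 site at 31 to 22, and the Xirp2 window has a MEF2 site at 74 to 65. A further Fhl2 window, not printed, has a CArG box at bases 31 to 22. CArG boxes were in 3 of the 11 member windows, from 2 genes (1.47% of all windows), and MEF2 sites in 2 windows (2.92%). GATAA was in 3 of the 11 windows (22.6% of all windows), CACCTG in 4 (17.2%) and CAGCTG in 0 (13.0%). These are matches of letters only.

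Library totals ranged from 14324700 to 21804907 estimated counts over the 32 libraries. Levels are given in CPM, a gene's count relative to the TMM-scaled size of its library. Mettl5 itself, counted over the whole gene, had log2 fold changes of 0.22 (SE 0.147) at 1 month, -0.18 (SE 0.116) at 3 months and -0.04 (SE 0.120) after TAC, with overlapping CPM ranges in each. This count therefore does not show the loss of METTL5, and the assignment of mouse libraries to a genotype rests on the labels. Why the count was not clearly lower was not tested. The paper reports that reads over the floxed METTL5 exons were nearly absent in METTL5-cKO hearts, and a count over the whole gene does not resolve exons. In the rat cells the row of rat Mettl5 was at 19.1 to 23.0 CPM with AdMETTL5 and 16.2 to 18.03 CPM with AdGFP, and whether reads of the human coding sequence reach this row was not tested. The defining cardiomyocyte markers were present in every group. Skeletal muscle markers summed to at most 19.8 CPM in any heart library and atrial markers to at most 4.09 CPM.

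After TAC, 6 of the 9 genes were higher in METTL5-cKO hearts than in control hearts, with no overlap between the 4 libraries of each group, and they include all 3 ankyrin repeat genes, both Xin repeat genes and Fhl1. Csrp3 and Fhl2 overlapped between the genotypes, and Tcap was lower without overlap. Over all 16340 genes tested in this comparison, 9.41% were higher without overlap and 9.16% lower without overlap. At the threshold applied to all genes, an adjusted p under 0.05 in edgeR's quasi-likelihood fit, 6 members counted as higher and 0 as lower, where 6.57% of all genes were called higher and 6.1% lower. The stricter rule of the study, which also asks for an absolute log2 fold change over 1, leaves 5 members (2.01% of all genes were higher by it). Since the members were chosen with this comparison in view, nothing is read from these counts. The median log2 fold change was 1.01 over the 9 members and -0.0035 over all genes tested.

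Ankrd1 (ENSMUSG00000024803, chr19:36111961-36120099, GRCm38), whose product binds titin and represses transcription in the nucleus, was at 1012, 861, 985 and 779 CPM in control TAC hearts and at 3749, 4090.3, 3072 and 1807 CPM in METTL5-cKO TAC hearts. The lowest METTL5-cKO library was above the highest control library. The group means of 909 ± 109 and 3179.6 ± 1008 CPM (SD, n = 4) correspond to a log2 fold change of 1.81 (SE 0.230).

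Ankrd2 (ENSMUSG00000025172, chr19:42036000-42045110), the ankyrin repeat gene best known from slow skeletal muscle, was near the detection limit in control TAC hearts, with 13, 15, 15 and 11 counts. In METTL5-cKO TAC hearts it had 64, 97, 91 and 58 counts, or 2.81, 4.42, 3.68 and 2.90 CPM. All METTL5-cKO libraries stood above all control libraries (0.645, 0.729, 0.780 and 0.534 CPM), with a log2 fold change of 2.35 (SE 0.207). Of the 10 skeletal muscle markers 4 could be tested and 0 were called, with a median log2 fold change of 0.24. Their sum was 7.80, 8.02, 9.38 and 10.1 CPM in METTL5-cKO and 6.99, 6.61, 4.94 and 8.25 CPM in control TAC hearts, so that 2 METTL5-cKO libraries were above all control libraries, and their part in the Ankrd2 values was not tested.

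Ankrd23 (ENSMUSG00000067653, chr1:36530188-36536883), the third ankyrin repeat gene, was at 326, 94.7, 219 and 198 CPM in control and at 965, 722, 611 and 468 CPM in METTL5-cKO hearts. The groups did not overlap, although the control libraries were spread widely, and the log2 fold change was 1.72 (SE 0.345). Its exons share 2109 bases on the same strand with the gene model Gm42417, so its counts are uncertain.

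Xirp2 (ENSMUSG00000027022, chr2:67446002-67526614), a large actin-binding protein of the intercalated disc, was at 458, 352, 318 and 353 CPM in control TAC hearts and at 1890.4, 1627, 1796 and 529 CPM in METTL5-cKO TAC hearts. The METTL5-cKO libraries fell into 3 high values and 1 that lay just above the control range. The log2 fold change was 1.98 (SE 0.343), and 2.27 without that library. Xirp2 shares 168 exon bases with the antisense gene Gm13601, which cannot be told apart where strand was not counted.

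Its relative Xirp1 (ENSMUSG00000079243, chr9:120013755-120023598) was at 166, 239.9, 215 and 191 CPM in control and at 309, 355, 269 and 375 CPM in METTL5-cKO hearts. The difference was smaller than for Xirp2, with a log2 fold change of 0.69 (SE 0.138), and the groups did not overlap.

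Fhl1 (ENSMUSG00000023092, chrX:56731787-56793346), a LIM protein that binds titin and growth-signaling kinases, was at 115, 109.8, 82.7 and 86.2 CPM in control and at 277, 209.9, 169 and 135 CPM in METTL5-cKO hearts. Every METTL5-cKO library was above every control library, with a log2 fold change of 1.01 (SE 0.210). Its paralog Fhl2 (ENSMUSG00000008136, chr1:43123074-43196984), which tethers metabolic enzymes to titin, went without such a difference, at 971, 877, 707 and 921 CPM in control and 735, 759, 679 and 814 CPM in METTL5-cKO hearts. These groups overlapped, and the log2 fold change was -0.22 (SE 0.111).

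The titin cap gene Tcap (ENSMUSG00000007877, chr11:98383811-98384953) was at 1188, 894, 929 and 879 CPM in control and at 668, 809.7, 847 and 593 CPM in METTL5-cKO TAC hearts. All METTL5-cKO libraries were below all control libraries, with a log2 fold change of -0.42 (SE 0.142). Csrp3 (ENSMUSG00000030470, chr7:48830398-48848033), the muscle LIM protein that partners with Tcap at the Z-disc, was at 994, 917, 975 and 926 CPM against 1064, 1129, 897 and 972 CPM. The Csrp3 groups overlapped, and its log2 fold change of 0.09 (SE 0.0909) was about as large as its standard error.

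**Figure D1:**
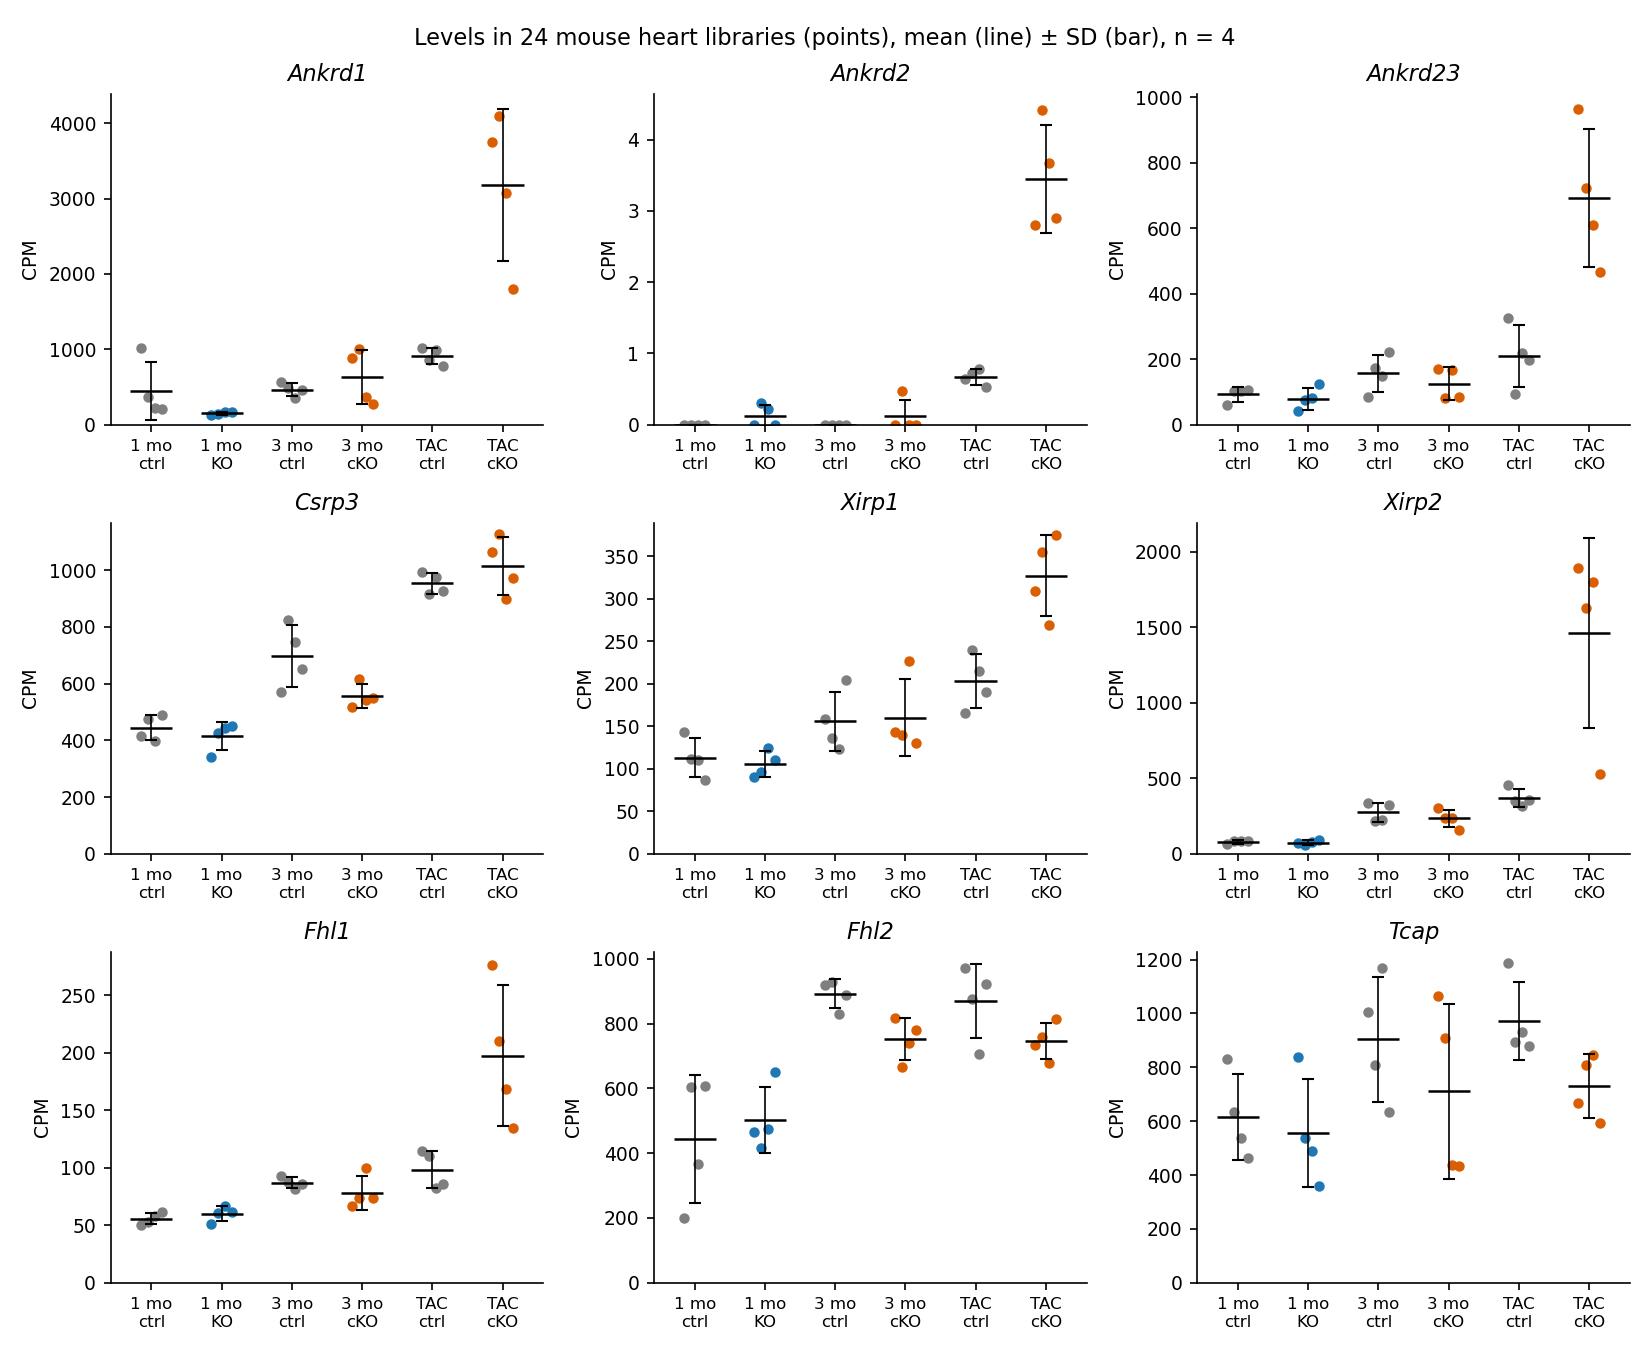
Level of each of the 9 genes in the 24 mouse heart libraries, in CPM on a linear axis starting at 0, with points for libraries, a line for the group mean and a bar for ± SD (n = 4). Each panel has its own scale, and after TAC the 4 METTL5-cKO points of Ankrd1 run from 1807 to 4090.3 CPM while the control points run from 779 to 1012 CPM.

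The library with the lowest Ankrd1 among METTL5-cKO TAC hearts was also the lowest of its group for Ankrd23, Xirp2 and Fhl1, and the highest for Xirp1 (375 CPM) and Fhl2 (814 CPM). It was the lowest for Tcap as well (593 CPM), and there it lay farthest of its group from the control TAC hearts (879 to 1188 CPM). The same library had the highest summed level of cardiomyocyte markers in its group (43714 CPM, against 33037, 33188 and 35546 CPM in the other METTL5-cKO libraries) and the lowest sum of fibroblast markers (1327 CPM, against 1642 to 2370 CPM). The control TAC hearts had 47383 to 52283 CPM of cardiomyocyte markers and 1053 to 1191 CPM of fibroblast markers. Without this library the log2 fold changes were 2.01 for Ankrd1, 2.27 for Xirp2 and 1.16 for Fhl1.

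Marker lists of cell types moved with the genotype after TAC. Of 8 cardiomyocyte markers 3 fell and 0 rose, of 7 fibroblast markers 5 rose and 0 fell, of 6 endothelial markers 4 fell and 0 rose, of 6 macrophage markers 2 rose and 0 fell, and of 5 smooth muscle markers 1 fell. The summed endothelial markers were at 434 to 577 CPM in METTL5-cKO and 641 to 767 CPM in control TAC hearts, the macrophage markers at 179 to 250.3 against 136 to 185 CPM, and the smooth muscle markers at 147 to 209 against 182 to 210.1 CPM. In tissue RNA, fewer cells of a type and less RNA per cell cannot be told apart, and the part of cell makeup in the members' differences was not tested. Divided by the cardiomyocyte marker sum of the same library, the log2 differences of METTL5-cKO from control TAC hearts were 2.20 for Ankrd1, 2.81 for Ankrd2, 2.26 for Ankrd23, 1.15 for Xirp1, 2.29 for Xirp2 and 1.43 for Fhl1. On that scale the same 6 genes had no overlap between groups, Csrp3 was higher without overlap (0.54), and Fhl2 (0.24) and Tcap (0.04) overlapped. The marker sum was lower in METTL5-cKO TAC hearts, so the division raises every gene, including one unchanged in CPM. The share of all genes without overlap on this scale was not computed, and nothing particular to the members is read from it.

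At 3 months, without TAC, 0 of the 8 members tested were called between METTL5-cKO and control hearts by edgeR's quasi-likelihood test, where 0.0732% of all 16391 genes tested were called. At an unadjusted p under 0.05, 2 members, Fhl2 and Csrp3, passed, where 7.05% of all genes did. Both were lower in METTL5-cKO hearts. The groups of 1 member did not overlap, Fhl2, where 4.23% of all genes had groups that did not overlap. The summed cardiomyocyte markers were also lower in METTL5-cKO hearts without overlap (42249.6 to 46207 against 48204 to 51058 CPM in controls), and those of fibroblasts (1118 to 1318 against 848 to 1065 CPM), macrophages (113 to 152 against 89.5 to 112 CPM) and skeletal muscle (7.24 to 19.8 against 4.73 to 6.84 CPM) were higher without overlap, while 0 genes of these lists were called. The part of these shifts in the members' values was not tested.

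Fhl2 was at 921, 928, 831 and 889 CPM in control and at 818, 667, 740.5 and 781 CPM in METTL5-cKO hearts. The highest METTL5-cKO library lay below the lowest control library by a small margin. The log2 fold change was -0.25 (SE 0.0891), and the adjusted p in edgeR was 0.587, with p = 0.0286 by the exact two-sided permutation test, the smallest p that 4 against 4 libraries allow. Csrp3 was at 571, 823, 745 and 653 CPM in control and at 518, 616, 544 and 548 CPM in METTL5-cKO hearts, which overlap. Its log2 fold change was -0.33 (SE 0.120), with an adjusted p of 0.601 from edgeR and an exact permutation p of 0.0571.

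Ankrd1 at 3 months was at 564, 490.3, 349 and 461 CPM in control hearts and at 887, 1000.1, 373 and 273 CPM in METTL5-cKO hearts. Of the METTL5-cKO libraries, 2 lay above all control values, 1 within their range and 1 below it. The log2 fold change was 0.44 (SE 0.376, 95% interval -0.40 to 1.28, adjusted p = 0.943 from edgeR), and 0.13 without the METTL5-cKO library at 1000.1 CPM. The other members had log2 fold changes from -0.35 (Tcap) to 0.04 (Xirp1), and all of their groups overlapped. The 95% intervals were -1.05 to 0.41 for Ankrd23, -0.42 to 0.50 for Xirp1, -0.69 to 0.23 for Xirp2 and -0.43 to 0.13 for Fhl1. Ankrd2 had 0 counts in 7 of the 8 libraries and 10 counts in 1 METTL5-cKO library, and was not tested. A count of 0 allows up to 3 counts, or 0.135 to 0.148 CPM in these libraries, by counting error only.

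At 1 month, 0 of 8 members tested were called between METTL5-KO and control hearts, where 0.00612% of all 16329 genes were. Ankrd1 was the 1 member with an unadjusted p under 0.05 (4.57% of all genes) and the 1 member whose groups did not overlap (3.01% of all genes). Its levels were 1018, 365, 217 and 212 CPM in control hearts 1 to 4 and 129.8, 146, 169.8 and 169.8 CPM in METTL5-KO hearts 1 to 4. A single control library was more than 2 times as high as any other young heart, and the rest of the control hearts lay above the METTL5-KO hearts by less. The log2 fold change was -1.56 (SE 0.473, 95% interval -2.62 to -0.49), with an adjusted p of 0.973 from edgeR and an exact permutation p of 0.0286. Without control heart 1 it was -0.78.

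The sign of the Ankrd1 value at 1 month was opposite to that after TAC, and this difference between experiments was not tested. The same control heart 1 was the lowest of its group for Ankrd23 (59.2 CPM, with the others at 103 to 107 CPM), Xirp2 (61.7 against 83.6 to 86.3 CPM) and Fhl2 (201 against 366 to 607 CPM), and the highest for Xirp1 (144 against 87.0 to 111 CPM) and Tcap (832 against 462 to 632 CPM). It also had the lowest summed cardiomyocyte markers (24483 against 30102 to 38959 CPM in the other control hearts) and smooth muscle markers (176 against 289.6 to 386 CPM) and the highest macrophage markers (183 against 106 to 148 CPM), and their part in its values was not tested. The remaining members had log2 fold changes between -0.23 for Ankrd23 and 0.18 for Fhl2, with overlapping groups. Csrp3 was at 397 to 488 CPM in control and 343 to 450.4 CPM in METTL5-KO hearts, and Fhl1 at 50.6 to 61.9 and 51.1 to 66.8 CPM. Ankrd2 had 0 counts in all 4 control hearts and 0, 6, 5 and 0 counts in METTL5-KO hearts.

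**Figure D2:**
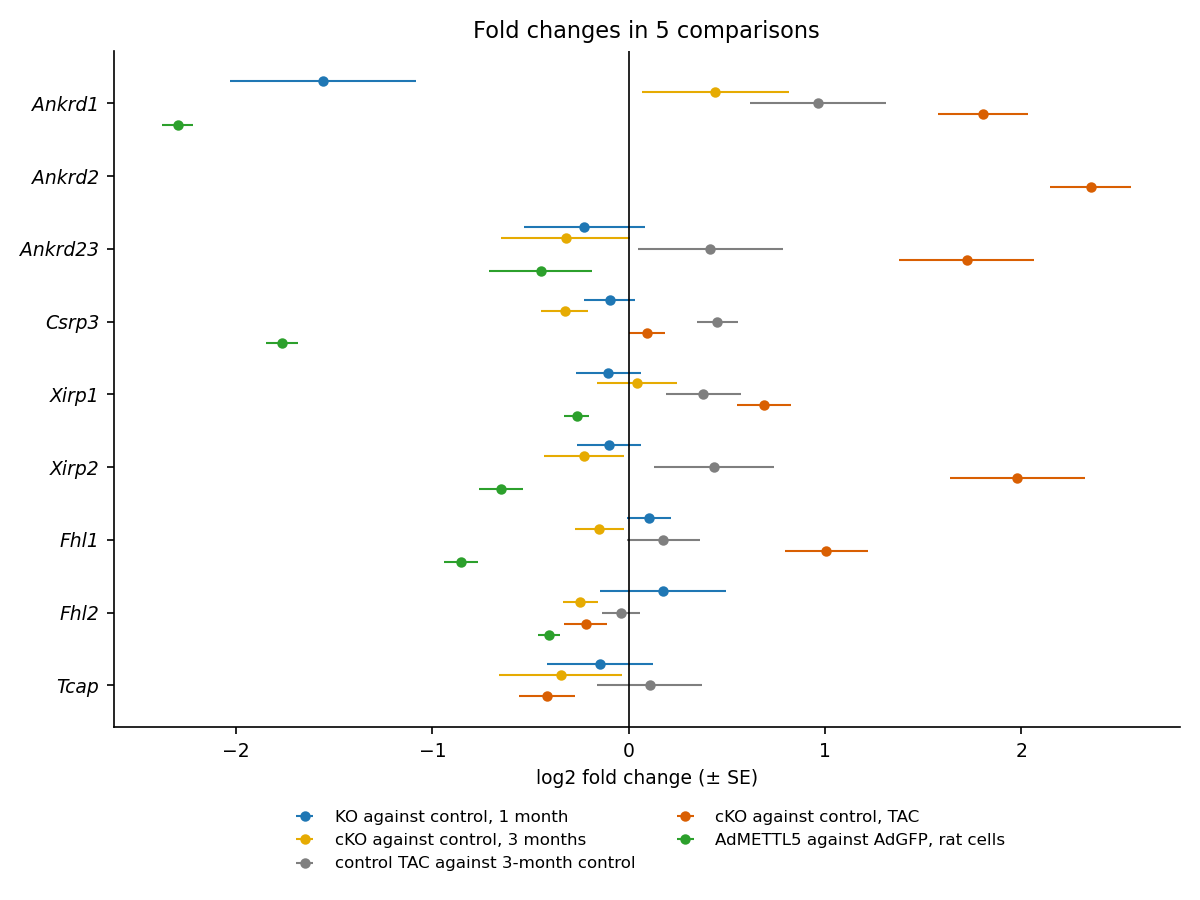
Log2 fold change of each gene (x axis) in 5 comparisons, as points with bars for ± SE. Ankrd1 has the values 1.81 after TAC, -2.30 in the rat cells, -1.56 at 1 month and 0.44 at 3 months, and those after TAC and in the rat cells chose the members. Ankrd2 is drawn only after TAC, since it was not tested at 1 and 3 months or in the rat cells and has only a lower bound in the comparison of control hearts.

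Control hearts after TAC were compared with control hearts at 3 months in a joint fit of the 16 libraries of both tables. TAC and the table cannot be told apart here, and the comparison shares its control TAC libraries with the genotype comparison. Ankrd2 was the 1 member of 9 called by edgeR's quasi-likelihood test, where 0.34% of all 17070 genes were called higher. It passed the filter on low counts only through the TAC groups in which it is high, so the call supports nothing by itself, and with at least 10 counts asked of every library it was not tested. It had 0 counts in all 4 libraries of 3-month control hearts and 11 to 15 counts after TAC, which is at least 4.75-fold higher when set against a floor of 3 counts per library (adjusted p = 0.0439, exact permutation p = 0.0286). This call was lost in 13 of 21 alternatives, with an adjusted p between 8.08e-05 and 0.139 over all of them, including leaving out any 1 control library.

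Ankrd1 and Csrp3 were also higher in all 4 control TAC libraries than in any 3-month control library, so that 3 members did not overlap, where 6.02% of all genes were higher without overlap. Summed macrophage markers were higher (135 to 186 against 89.3 to 112 CPM) and smooth muscle markers lower (180.9 to 208.6 against 208.8 to 252.7 CPM) after TAC in these controls, also without overlap, and their part was not tested. Ankrd1 had means of 466 ± 89.2 CPM at 3 months and 908 ± 113 CPM after TAC (SD, n = 4). Its log2 difference was 0.96 (SE 0.344, adjusted p = 0.170 from edgeR's joint fit, exact permutation p = 0.0286). With only the control libraries in the fit, whose spread for this gene is smaller than that of the METTL5-cKO hearts, the adjusted p was 0.0189. Csrp3 had means of 697 ± 106 and 952 ± 42.0 CPM, a log2 difference of 0.45 (SE 0.105, adjusted p = 0.0634 from edgeR). DESeq2 gave Csrp3 an adjusted p of 0.00263. The others had log2 differences of 0.42 (Ankrd23), 0.38 (Xirp1), 0.43 (Xirp2), 0.18 (Fhl1), -0.04 (Fhl2) and 0.11 (Tcap), with overlapping groups and adjusted p from 0.315 to 0.859 in edgeR.

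In METTL5-cKO hearts the log2 difference of TAC from 3 months was 2.34 (SE 0.358) for Ankrd1, 2.47 (SE 0.387) for Ankrd23 and 2.66 (SE 0.324) for Xirp2. It was 0.88 for Csrp3, 1.04 for Xirp1 and 1.35 for Fhl1, and none of these groups overlapped. Ankrd2 went from 10 counts in a single library to 58 to 97 counts in all 4. Fhl2 (0.00) and Tcap (0.05) overlapped between METTL5-cKO hearts at 3 months and after TAC. These values share libraries with the genotype comparisons and are given without a test. TAC and the table cannot be told apart here either. The share of all genes without overlap was not computed for this comparison, so nothing is read from the lack of overlap.

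In PE-treated NRVMs all 7 members that passed the filter on low counts had lower mean levels with AdMETTL5 than with AdGFP, and 5 of them did not overlap between the groups. Of all 15041 genes tested, 23.1% were lower without overlap. At the threshold applied to all genes 6 members counted as lower and 0 as higher, where 25.7% of all genes were called lower, and the stricter rule leaves Ankrd1 and Csrp3 (1.8% of all genes). The choice of members used this comparison, and nothing is read from the counts. The median log2 fold change was -0.65 over the 7 members and -0.0022 over all genes.

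Ankrd1 was at 6743, 6886, 5789.8 and 5880.3 CPM with AdGFP and 1229, 1280.2, 1205 and 1432 CPM with AdMETTL5. The groups lay far apart compared with their spread, and the log2 fold change was -2.30 (SE 0.0794). Csrp3 was at 1432, 1380.4, 1113 and 1158 CPM against 374, 391, 351 and 378 CPM. It too was well separated, with a log2 fold change of -1.77 (SE 0.0813), whereas its levels overlapped between genotypes after TAC.

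Fhl1 was at 2601, 2516, 1966 and 1999.5 CPM with AdGFP and 1271, 1254, 1249 and 1243 CPM with AdMETTL5. The groups did not overlap, and the log2 fold change was -0.86 (SE 0.0874). Fhl2 was at 202, 199, 179 and 176 CPM against 143, 146, 137 and 143 CPM, which also do not overlap. Its log2 fold change was -0.41 (SE 0.0536).

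Xirp2 was at 758, 867, 569.7 and 678 CPM with AdGFP and 421, 417, 478 and 513 CPM with AdMETTL5. Here the lowest AdGFP value was still above the highest AdMETTL5 value, with a log2 fold change of -0.65 (SE 0.112). Xirp1 was at 504, 525, 425 and 472 CPM against 397, 395, 425 and 385 CPM, and the groups met at 425 CPM (log2 fold change -0.27, SE 0.0643). Ankrd23 was at about 1 CPM in every rat library, 0.890 to 1.51 CPM with AdGFP and 0.671 to 1.05 CPM with AdMETTL5, with overlapping groups (-0.45, SE 0.262). Ankrd2 had 5 counts in 1 AdGFP library and 0 in the other 7, and was not tested.

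**Figure D3:**
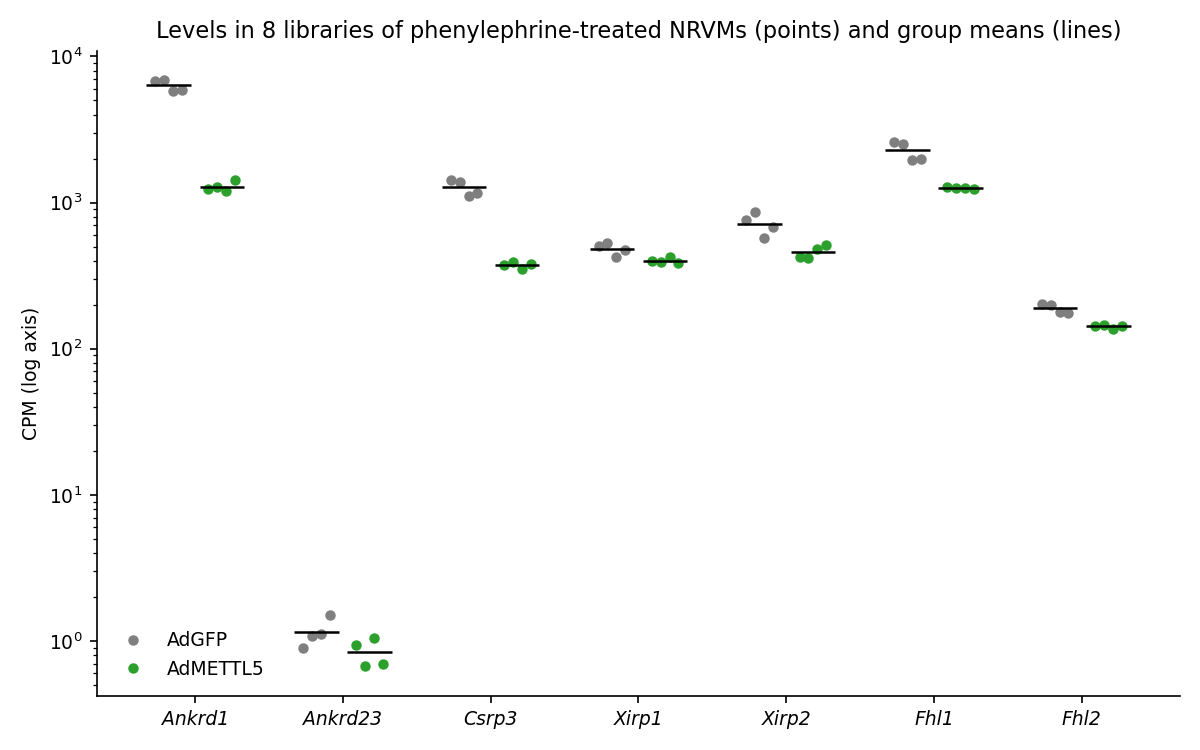
Level of the 7 members tested in the 8 libraries of PE-treated NRVMs, in CPM on a log axis, with points for libraries and lines for group means (n = 4). Ankrd1 lies at 5789.8 to 6886 CPM with AdGFP and at 1205 to 1432 CPM with AdMETTL5, and Ankrd23 lies near 1 CPM in both.

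The cardiomyocyte markers as a list were also lower with AdMETTL5. All 8 fell, with a median log2 fold change of -1.31, and their sum was 12251 to 13749.6 CPM with AdMETTL5 and 28937 to 37111 CPM with AdGFP. Of 6 fibroblast markers tested 5 fell (sum 7197 to 7923 against 8865 to 9367 CPM), of 4 macrophage markers 2 fell (48.5 to 59.4 against 61.1 to 72.0 CPM), of 3 atrial markers 3 fell (104 to 118 against 222 to 234 CPM), and of 5 skeletal muscle markers 3 fell (7.63 to 10.6 against 11.2 to 22.6 CPM). Of 4 endothelial markers 1 rose (39.0 to 46.6 against 27.0 to 29.3 CPM), and of 5 smooth muscle markers 2 rose and 1 fell (3259 to 3754 against 2741 to 3453 CPM). The part of cell makeup in the members' values was not tested in the rat cells either.

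Set against the summed cardiomyocyte markers of the same library, only Ankrd1 and Csrp3 stayed lower with AdMETTL5, with log2 differences of -0.93 and -0.39 and no overlap between the groups. Xirp1 (1.11), Fhl2 (0.96), Xirp2 (0.73) and Fhl1 (0.52) were higher on this scale without overlap, and Ankrd23 (0.92) overlapped. The direction of these 5 genes in the rat cells thus depends on whether they are counted in CPM or per cardiomyocyte marker, while Ankrd1 was at 183 to 200.1 per 1000 CPM of markers with AdGFP and at 93.1 to 117 with AdMETTL5. Because the marker sum was lower with AdMETTL5, the division raises the value of every gene by about the same amount. A gene unchanged in CPM would also read as higher on this scale. The share of all genes without overlap on it was not computed, so nothing particular to the members is read from these signs.

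**Figure D4:**
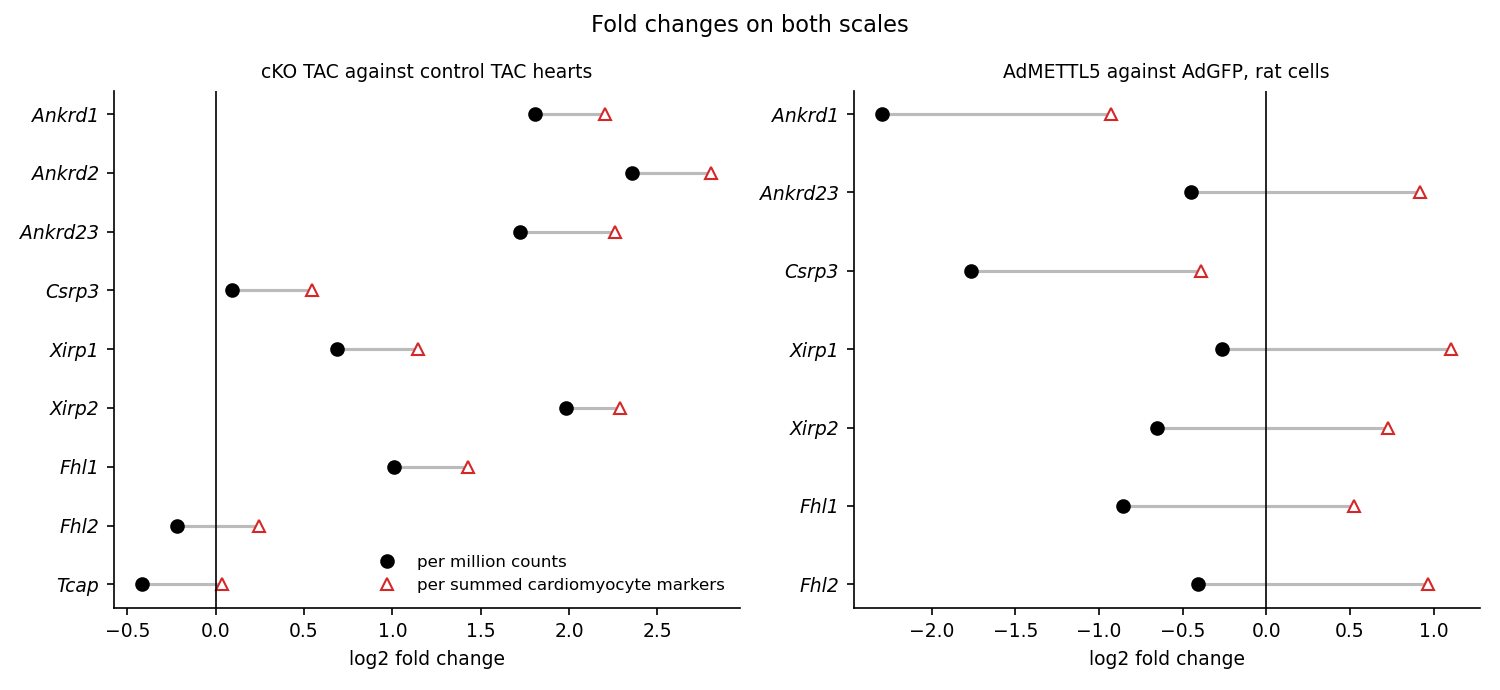
Log2 fold change of each member in CPM (black circles) and per summed cardiomyocyte markers of the same library (open triangles), for METTL5-cKO against control TAC hearts on the left and AdMETTL5 against AdGFP on the right. After TAC the 6 genes that were higher in CPM remain higher on both scales, Fhl2 and Tcap change sign, and in the rat cells 5 genes change sign while Ankrd1 (-2.30 and -0.93) and Csrp3 (-1.77 and -0.39) do not. The marker sum was lower in METTL5-cKO TAC hearts and with AdMETTL5, which shifts every gene upward on the marker scale.

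Side by side, Ankrd1 (1.81 after TAC and -2.30 in NRVMs), Xirp2 (1.98 and -0.65), Fhl1 (1.01 and -0.86) and Xirp1 (0.69 and -0.27) had opposite directions in CPM with METTL5 loss in the stressed mouse heart and with added METTL5 in rat cells. Csrp3 (0.09 and -1.77) was lower in the rat cells alone. Ankrd23 (1.72 and -0.45) also differed in sign, but its level in the rat cells was low and its groups overlapped there. Fhl2 (-0.22 and -0.41) was lower in both means, and Tcap and Ankrd2 had no rat comparison. Scaling by library size alone would move the median of all genes by 0.15 after TAC and 0.14 in NRVMs, and the share of called genes that were higher from 51.9% to 79.7% after TAC, from 51.4% to 71.5% in NRVMs and from 65.9% to 48.9% between control hearts. With that scaling no member changed sign after TAC or in NRVMs, Xirp1 in NRVMs went from -0.27 to -0.13 and no longer passed the threshold, and Csrp3 after TAC went from 0.09 to 0.24.

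A list of 44 other genes of the Z-disc and its attachments served as the surroundings of the 9 members. It held family relatives, Z-disc scaffold proteins, desmin with chaperones, and costamere and adhesion proteins. At 1 month and at 3 months 41 were tested and 0 were called by edgeR's quasi-likelihood test, with median log2 fold changes of 0.07 and 0.03. After TAC 10 of 42 tested rose and 2 fell in METTL5-cKO hearts, with a median log2 fold change of 0.20. Of all genes 12.7% were called, 6.57% higher and 6.1% lower. Synpo2l, an actin-binding Z-disc protein, went from 115 ± 11.2 to 429 ± 153 CPM (log2 fold change 1.90, SE 0.249, adjusted p = 0.00611 from edgeR). Desmin (Des), the intermediate filament that ties Z-discs together, went from 1496 ± 35.8 to 3019 ± 738 CPM (1.01, SE 0.160, adjusted p = 0.00953 from edgeR), and filamin C (Flnc), an actin crosslinker of the Z-disc, from 212 ± 19.1 to 385 ± 47.5 CPM (0.86, SE 0.107, adjusted p = 0.00544 from edgeR). The 2 that fell were dystrophin (Dmd, -0.65, SE 0.158, adjusted p = 0.0299) and the integrin partner Itgb1bp2 (-0.36, SE 0.0940, adjusted p = 0.0379), both in edgeR and both from the costamere group.

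By role, 1 of 3 tested family relatives, 4 of 21 scaffold genes, 1 of 4 of the desmin group and 4 of 14 costamere genes rose after TAC. Of all genes 6.57% were called higher there. The count of 12 fell to 4, 5 or 7 genes when any 1 of the 4 control libraries or of the first 3 METTL5-cKO libraries in table order was left out, and it was 17 without the METTL5-cKO library low in Xirp2. Between control TAC and 3-month control hearts 0 of 42 were called in edgeR (0.516% of all genes) and 2 in DESeq2. In NRVMs 29 of 40 fell with AdMETTL5 and 4 rose, with a median log2 fold change of -0.55. Of all genes 52.8% were called there in either direction and 25.7% were called lower. The lower genes with the smallest adjusted p were Ldb3 (-1.50, SE 0.0648), which links α-actinin to other Z-disc proteins, Actn2 (-1.20, SE 0.0583), the cardiac α-actinin, and the ubiquitin ligase Trim55 (-1.19, SE 0.0524). Trim63 (0.32, SE 0.0453), Csrp2 (0.38, SE 0.0585) and Lims1 (0.33, SE 0.0600) rose.

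Levels can be compared between genes only per length, here as CPM per kb of merged exons in GENCODE's GRCm38 annotation. In control hearts at 3 months the order was Tcap (954 ± 244 CPM per kb), Fhl2 (470.4 ± 23.3), Csrp3 (261 ± 41.0) and Ankrd1 (162 ± 30.9), with no overlap between neighbours. Ankrd23 (58.3), Xirp1 (26.6), Fhl1 (23.4) and Xirp2 (22.8) followed, each overlapping the next, and Ankrd2 was at 0. In control TAC hearts Ankrd1 (315 ± 37.7) came close to Csrp3 (357 ± 13.97), and their ranges overlapped. In METTL5-cKO TAC hearts Ankrd1 had the highest mean (1102 ± 349), above Tcap (769 ± 126), with overlapping ranges. Xirp2 (122 ± 52.7) was above Xirp1 (56.0 ± 8.19) and Fhl1 (53.2 ± 16.4) in the mean, while Ankrd2 was at 3.03 ± 0.664 CPM per kb.

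Across the 6 mouse group means of log2 CPM, the genes most like Ankrd1 among 7398 genes with a mean of at least 10 CPM were Cnksr1 (Pearson r 0.994), Masp1 (0.993), Lrrc8a (0.992), Igfbp6 (0.992) and Atg101 (0.988). Among the members r with Ankrd1 was 0.972 for Xirp1, 0.958 for Ankrd23, 0.947 for Xirp2, 0.925 for Fhl1, 0.882 for Csrp3, 0.840 for Ankrd2, 0.480 for Fhl2 and 0.426 for Tcap. These are descriptions over 6 points that come from 3 tables, and the METTL5-cKO TAC group is far from the other groups in Ankrd1.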

How the data were processed

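RNA sequencing was taken from 4 deposited tables with 4 libraries in each of 8 groups, assigned from sample labels and column names. Per the submitters' processing notes, the authors used HISAT2 2.0.4 and StringTie 2.1.4 with GRCm38 and Rnor_6.0. The deposited values are estimated counts per gene in whole numbers, unscaled between libraries. Annotation release and strandedness are not given in the sources used here. The plan had assumed plain counts, and the tests were run on the estimated counts as they are. Genes that share exons, such as Ankrd23 and Gm42417, may exchange counts.

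Each table was fitted by itself with the quasi-likelihood functions of edgeR 4.0.16 under R 4.3.3. Library sizes were scaled by TMM, genes were kept by filterByExpr at a minimum of 10 counts and a total of at least 15, and p-values were adjusted over all genes tested after Benjamini and Hochberg. Control TAC hearts were compared with 3-month control hearts in a joint fit of both tables. A gene was called at an adjusted p under 0.05, and the stricter rule of the study also asked for an absolute log2 fold change over 1. For single members an exact permutation test was added, two-sided over the 70 labelings of 4 against 4 libraries, on log2 CPM with a prior count of 2, except where the choice of members used the comparison. No pair of libraries looked like duplicates, since chi-square divided by its degrees of freedom was at least 2.16 within groups. The code was tested on simulated data.

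Named were all members, Mettl5, up to 3 higher and 3 lower called genes of the Z-disc list per comparison with the smallest adjusted p, and the 5 genes most like Ankrd1. The members and all lists were chosen with earlier results of these data known. Alternatives were DESeq2 1.42.0, its size factors in edgeR, library size alone, no filter, at least 10 counts in every library, a minimum fold change, leaving out each library, only the control libraries in the joint fit, and the replicate number as a block. Scaling to cardiomyocyte markers was added after the data were seen. Sequences come from RefSeq (GRCm38.p6) and mouse gene positions from the GENCODE GRCm38 annotation. Of the rat rows, 396 carry no symbol.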

Additional observations from a re-analysis of the deposited data

Results flagged for a closer look

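A library stood far from the other 3 of its group in 4 cases. With Dixon's criterion chance alone gives such a case in about 1 of 20 groups tested. The members were tested in every group, except that Ankrd2, for its low counts, was tested only in the TAC groups and Tcap only in mouse groups. Ankrd23 was at 59.2 CPM in control heart 1 at 1 month, where the nearest other control heart was at 103 CPM. Xirp2 was at 61.7 CPM in the same heart, with the nearest at 83.6 CPM. Xirp1 was at 227 CPM in 1 METTL5-cKO heart at 3 months, with the nearest at 143 CPM. Tcap was at 1188 CPM in 1 control TAC heart, with the nearest at 929 CPM.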

How the results depend on the processing

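Without 1 library, the number of members called ranged from 3 to 6 after TAC (6 with all libraries, 3 without the METTL5-cKO library highest in Ankrd1 or the control library lowest in it) and from 0 to 2 between control TAC and 3-month control hearts (1 with all), and that of Z-disc list genes after TAC from 4 to 17 (12 with all). Between control hearts, 2 members were called with DESeq2 and with only the control libraries, and 0 with library size alone, with no filter on low counts and with at least 10 counts in every library, and the Z-disc list gave 2 with DESeq2 and 1 with only the control libraries. With a minimum fold change, 2 members and 7 Z-disc list genes were called in NRVMs and 2 Z-disc list genes after TAC. Library size alone gave 19 Z-disc list genes after TAC and no filter gave 6, and DESeq2 called 1 at 3 months. For the members after TAC, DESeq2 counted 6 as higher and 1, Tcap, as lower. The share of all genes called under the same alternative was not set beside these counts. After TAC and in NRVMs the comparison also chose the members, and nothing is read from the counts of members there. Leaving out 1 library gave log2 fold changes on both sides of 0 at 1 month for Xirp1 (-0.21 to 0.0363), Xirp2 (-0.22 to 0.0047), Fhl2 (-0.0638 to 0.36) and Tcap (-0.41 to 0.0368), at 3 months for Xirp1 (-0.18 to 0.20), and between control hearts for Fhl2 (-0.0872 to 0.0443) and Tcap (-0.0271 to 0.25). Relative to cardiomyocyte markers, Xirp1 (1.11), Xirp2 (0.73), Fhl1 (0.52), Fhl2 (0.96) and Ankrd23 (0.92, not called before) turned direction in NRVMs. The lower marker sum with AdMETTL5 shifts every gene upward on that scale. The causes were not tested beyond the construction of each alternative. A replicate block by label number at 1 month gave 0 members called, as without it, and same-numbered libraries had correlations of -0.11 to 0.24, so the numbers were not taken to pair them. No paired analysis was possible because the columns of the other tables carry no replicate numbers of the labels. Of all values recomputed for single members, 592 were labelled as kept and 15 as moved by more than the spread. A further 14 were labelled as turned in direction, 3 as newly passing the threshold and 13 as no longer passing it. After TAC and in NRVMs calls were not compared, and a turn was labelled only for called members. Calls lost there are therefore not among the 13. The turns of Fhl2 and Tcap after TAC and of Ankrd23 in NRVMs are among the moved values. With 4 libraries per group, Ankrd2 and rat Ankrd23 lie close to the level that depth allows to be measured.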
